A study of Mus musculus with 24 samples.

Results

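The late response to CHIRON removal was measured as the difference in RNA between mouse embryonic stem cells (mESCs) 12 h after CHIRON was withdrawn and mESCs still in 2i + LIF, the 0 h controls. The cells were E14 mESCs (129m wt) on fibronectin-coated StemBond hydrogels, soft or stiff, and spent 12 h in 2i + LIF before the change of medium. In 2i, PD03 at 1 µM inhibits MEK and so the ERK pathway, and CHIRON at 3 µM inhibits the kinase GSK3. The 4 groups were soft at 0 h, stiff at 0 h, soft at 12 h and stiff at 12 h, with 2 libraries each, and the 12 h groups were in PD03 + LIF. All groups shared the cell line, PD03, LIF and the fibronectin coat. The 12 h cells had also been longer on the gels than the 0 h cells, so time in culture and loss of CHIRON cannot be told apart. These were 8 of the 12 libraries of the experiment and of 24 in the series. All genes with enough counts were kept, 19456 of the 48709 in the table. The labels do not say whether the 2 libraries of a group came from separate cultures, so p-values measure the spread between these libraries, which may be technical.

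CHIRON acts on a switch at the centre of canonical Wnt signalling. GSK3 marks β-catenin for destruction, and when GSK3 is blocked β-catenin enters the nucleus, binds Tcf/Lef factors, raises direct Wnt targets and lifts the repression that Tcf7l1 places on the pluripotency network. In mESCs this, together with the block of ERK and the Stat3 signal from LIF, holds naïve pluripotency, and GSK3 also acts on proteins outside the Wnt pathway, such as glycogen synthase and Myc.

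The 8 libraries held between 19393787 and 31111260 counts. A single lincRNA model, Gm26917, took between 3.40% and 9.50% of a library, with both extremes in the soft 12 h group, and the mitochondrial genome took between 2.27% and 4.11%. The first principal component held 40.6% of the variance and separated 12 h from 0 h, and the second held 14.2% and set replicate 2 of stiff at 0 h apart from the other 0 h libraries. Defining genes of mESCs were abundant at both times, with at least 9363 counts of Nanog and 13539 of Pou5f1 in every library. In such bulk samples, fewer cells of a type and less RNA per cell cannot be told apart.

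After 12 h without CHIRON, 2457 genes had risen and 2240 had fallen, which is 12.6% and 11.5% of the genes tested (edgeR's quasi-likelihood test with substrate as a block, Benjamini-Hochberg adjusted p under 0.05). Most changes were small. The median size of a called log2 fold change was 0.416, and 2783 of the 4697 called genes changed by less than 0.5 on the log2 scale. A rise by over 1 was found for 394 genes (2.03%) and a fall by over 1 for 341 genes (1.75%). The 4 libraries at 12 h did not overlap the 4 at 0 h for 4979 genes (25.6%), of which 4030 were called. Of 13872 protein-coding genes, 2249 rose (16.2%) and 1996 fell (14.4%). Below, "rose" and "fell" are used only of genes that passed this threshold over all 19456 genes. A log2 fold change is that of 12 h against 0 h, and the values of the 4 libraries at a time are in normalised CPM (counts relative to the TMM-scaled library total) in the order soft replicate 1, soft replicate 2, stiff replicate 1 and stiff replicate 2. A value in brackets after a gene is its log2 fold change ± standard error. Counts of multicopy genes, such as histone, ribosomal protein, Usp17 and Lefty genes, are uncertain because reads may be split among copies.

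The 3 markers of Wnt activity fell on both substrates. Sp5 codes for a zinc finger factor that binds Wnt target promoters, and its RNA was at 136, 129.6, 109 and 105 CPM at 0 h and 1.94, 2.01, 2.11 and 1.74 CPM at 12 h. The groups were far apart, and the fall was 61.4-fold (log2 fold change −5.94, standard error 0.084, adjusted p = 6.9e-17), the smallest p of all genes. Axin2, the scaffold of the complex that destroys β-catenin, was at 152, 158, 139 and 154 CPM at 0 h and 25.0, 24.8, 23.4 and 25.9 CPM at 12 h (log2 fold change −2.61, standard error 0.06, adjusted p = 7.8e-14). Every library at 12 h was well under every library at 0 h, yet Axin2 kept a clear level, at 24.8 ± 1.01 CPM (SD, n = 4). T, or Brachyury, the T-box factor of the primitive streak, was low at 0 h with 151, 207, 139 and 165 counts and had 7, 5, 3 and 2 counts at 12 h (log2 fold change −5.24, standard error 0.25, adjusted p = 2.8e-10).

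The 250 bases before the starts of Sp5 and T are shown because these 2 genes had among the largest falls, and short letters of the kind bound by Tcf/Lef factors stand in them. The sequences are from RefSeq, 5′ to 3′ on the strand of the gene. Capitals mark CTTTGAT in Sp5 (chr2:70474673-70474922 of GRCm38.p6, plus strand) and TTCAAAG, the reverse strand of CTTTGAA, in T (chr17:8434173-8434422 of GRCm38.p6, plus strand).
Sp5: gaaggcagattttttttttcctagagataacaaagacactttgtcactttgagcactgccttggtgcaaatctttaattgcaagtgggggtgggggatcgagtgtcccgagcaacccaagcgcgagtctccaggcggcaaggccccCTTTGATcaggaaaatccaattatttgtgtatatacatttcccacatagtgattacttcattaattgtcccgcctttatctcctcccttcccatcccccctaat
T: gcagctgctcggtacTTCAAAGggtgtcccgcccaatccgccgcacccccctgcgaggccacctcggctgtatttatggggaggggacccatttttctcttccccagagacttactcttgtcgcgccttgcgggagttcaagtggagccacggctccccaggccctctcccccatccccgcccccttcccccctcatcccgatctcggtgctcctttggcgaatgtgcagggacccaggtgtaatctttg
On either strand, CTTTGAT stood in 3.21% and CTTTGAA in 4.46% of all 32851 promoter windows of this length. Counted per gene over any of its promoters, these shares were 3.72% and 5.19% of 27025 genes. Among the 22 Wnt target and feedback genes with a window, 2 held CTTTGAT and 4 held CTTTGAA. Such a match is only a description of the letters.

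Of the 38 tested genes on the list of Wnt targets and feedback genes, 15 fell and 6 rose, with a median log2 fold change of −0.08 against −0.0036 over all genes. The caudal homeobox genes, which pattern the posterior body axis, fell with the markers. Cdx1 was at 138, 137, 125 and 129 CPM at 0 h and 7.28, 11.3, 6.55 and 7.41 CPM at 12 h (log2 fold change −4.05, standard error 0.1, adjusted p = 1.9e-13). Cdx2 was rarer, with 71, 133, 123 and 73 counts at 0 h and 4, 0, 1 and 1 counts at 12 h (log2 fold change −5.94, standard error 0.42, adjusted p = 3.5e-08), so its fitted fold rests on few counts. Besides these genes and the markers, the falls were in Wnt inhibitors and receptor-removing ligases (Dkk1, Nkd1, Rnf43 and Znrf3), nuclear partners of β-catenin (Tcf7 and Lef1), ligand genes and their processing (Wnt8a and Porcn), and Sp8 and Ccnd1. The 6 that rose were the Tcf genes Tcf7l1 and Tcf7l2, the secreted Wnt inhibitors Sfrp1 and Notum, Lgr4 and Bcl9l. The list of primitive streak and mesoderm genes shares 4 of its falling genes with the Wnt list, and 6 of its 20 tested genes fell while 5 rose.

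Beyond the Wnt list, the 15 protein-coding genes with the largest falls had varied roles. Nkx1-2, a homeobox gene of axial progenitors, was at 10.9, 13.2, 11.8 and 10.8 CPM at 0 h and 1.38, 1.16, 1.23 and 1.35 CPM at 12 h (log2 fold change −3.17, standard error 0.14, adjusted p = 1.1e-10). Wnt5b, a Wnt ligand, went from 2.90, 3.16, 2.56 and 1.78 CPM to 0.184, 0.0528, 0.338 and 0.349 CPM (log2 fold change −3.44, standard error 0.36, adjusted p = 2.2e-06). In both genes the groups did not overlap and each substrate showed the fall. St8sia2, which adds polysialic acid to the adhesion molecule NCAM, fell from 2.53 ± 0.857 to 0.108 ± 0.0723 CPM (SD, n = 4). S1pr3, a receptor for sphingosine 1-phosphate, had 44, 40, 41 and 30 counts at 0 h and 4, 0, 2 and 2 counts at 12 h. Ido2, an enzyme that opens the ring of tryptophan, was the most abundant of the remaining genes, at 22.0, 23.7, 24.0 and 24.7 CPM at 0 h and 2.52, 1.53, 1.86 and 1.61 CPM at 12 h (log2 fold change −3.61, standard error 0.13, adjusted p = 1.3e-11). Channel and receptor genes of this group were Cnga4 (log2 −3.68 ± 0.31), a subunit of the olfactory cyclic nucleotide channel, Htr5a (log2 −3.49 ± 0.19), a serotonin receptor, and Cacng5 (log2 −3.37 ± 0.39), an auxiliary subunit of glutamate receptors. The last 3 of the 15 besides the genes above were Ccdc190 (log2 −3.46 ± 0.37), Gm694 (log2 −2.99 ± 0.31) and Afap1l1 (log2 −2.95 ± 0.21), the last coding for a protein that binds actin filaments.

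Among the 5 falls with the smallest p, Gbx2 and Ntn1 were the ones not yet described. Gbx2, a homeobox gene downstream of LIF and Stat3 in mESCs, was at 52.6, 51.5, 50.6 and 54.3 CPM at 0 h and 8.17, 8.40, 9.77 and 9.51 CPM at 12 h (log2 fold change −2.55, standard error 0.073, adjusted p = 1.1e-12). Ntn1 codes for the secreted guidance protein netrin 1, and its levels of 191, 208, 199.6 and 191 CPM at 0 h became 51.0, 57.3, 53.8 and 50.8 CPM at 12 h (log2 fold change −1.89, standard error 0.058, adjusted p = 2.2e-12). On soft and on stiff gels the log2 fold changes were −2.65 and −2.44 for Gbx2 and −1.88 and −1.90 for Ntn1.

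**Figure D1:**
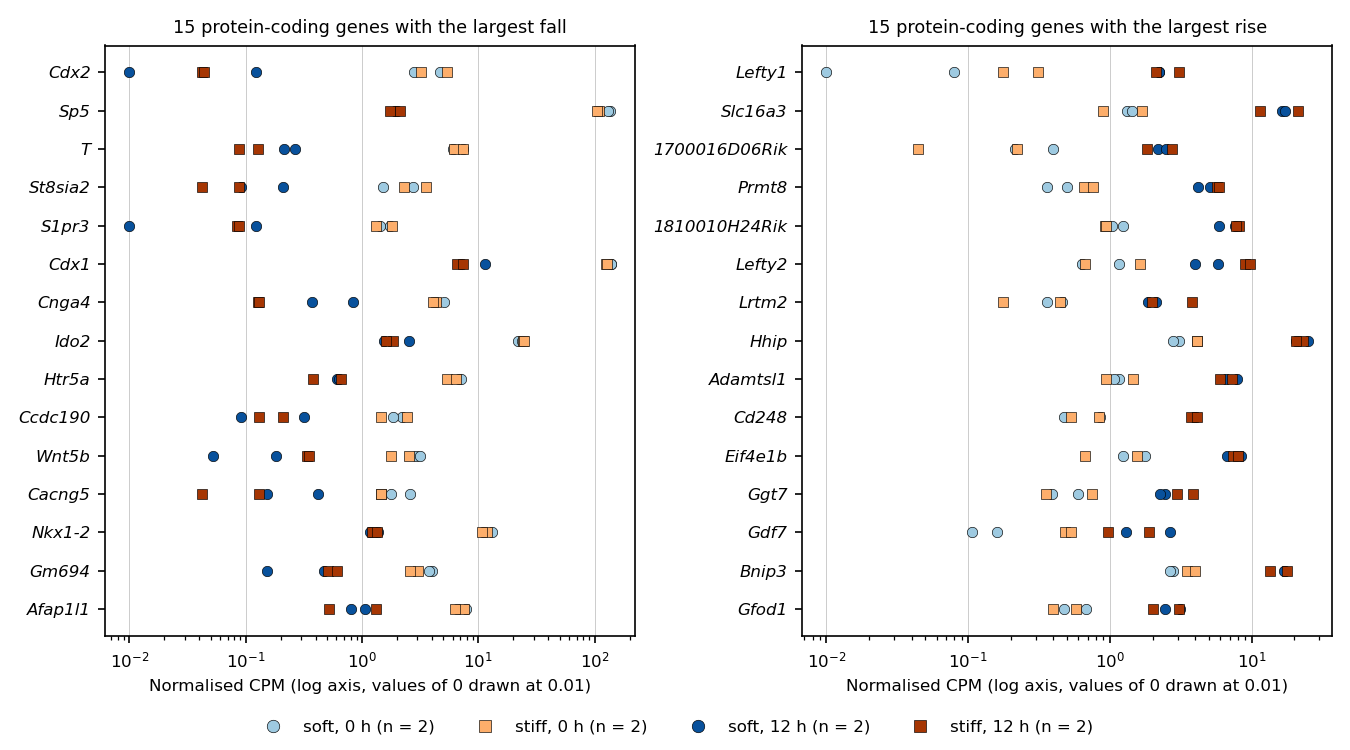
Normalised CPM (log axis) of the 15 protein-coding genes with the largest fall (left) and rise (right) 12 h after CHIRON removal, among genes called and with groups that do not overlap. Each point is 1 of the 8 libraries, pale at 0 h and dark at 12 h, circles for soft and squares for stiff. The 4 dark points lie left of the 4 pale points for each falling gene and right of them for each rising gene, as the choice of genes required.

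The largest rises were in genes that were scarce in 2i + LIF. Slc16a3, the exporter of lactate known as MCT4, was at 1.31, 1.42, 1.68 and 0.889 CPM at 0 h and 16.5, 17.3, 11.5 and 21.2 CPM at 12 h. Every library at 12 h was above every library at 0 h, a 12.5-fold rise (log2 fold change 3.64, standard error 0.2, adjusted p = 2.0e-09). Bnip3, a mitochondrial protein of the Bcl2 family that promotes mitophagy, went from 2.79, 2.67, 3.48 and 4.00 CPM to 17.1, 16.9, 13.4 and 17.8 CPM (log2 fold change 2.35, standard error 0.14, adjusted p = 3.4e-09). Hhip, which binds and holds back Hedgehog ligands, went from 3.06, 2.77, 4.10 and 4.09 CPM to 24.9, 20.5, 23.0 and 20.7 CPM (log2 fold change 2.69, standard error 0.12, adjusted p = 2.1e-10). These 3 genes reached over 10 CPM in each library at 12 h.

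Both Lefty genes, secreted inhibitors of Nodal, were among the 15. Lefty1 had 2, 0, 4 and 7 counts at 0 h and 72, 42, 50 and 70 counts at 12 h (log2 fold change 4.13, standard error 0.42, adjusted p = 1.9e-06), and Lefty2 was at 1.15, 0.639, 1.63 and 0.667 CPM at 0 h and 5.80, 4.01, 8.92 and 9.77 CPM at 12 h (log2 fold change 2.77, standard error 0.23, adjusted p = 2.3e-07). The 2 genes are close copies of each other, so the split of reads between them is uncertain. Gdf7, a ligand of the BMP family, had 4, 3, 11 and 12 counts at 0 h and 42, 50, 23 and 43 counts at 12 h. Its groups did not overlap (log2 fold change 2.43, standard error 0.45, adjusted p = 8.1e-04).

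The other 9 rises of the 15 joined genes of varied roles. Prmt8, an arginine methyltransferase, went from 0.568 ± 0.176 to 5.20 ± 0.763 CPM (SD, n = 4, log2 fold change 3.20, standard error 0.2, adjusted p = 6.4e-09). Cd248, the surface protein endosialin, went from 0.676 ± 0.201 to 3.95 ± 0.172 CPM, and Adamtsl1, a secreted protein of the extracellular matrix, from 1.15 ± 0.222 to 6.92 ± 0.813 CPM. Eif4e1b, a cap-binding protein of oocytes, went from 1.30 ± 0.480 to 7.64 ± 0.719 CPM. Further rises were Lrtm2 (log2 2.69 ± 0.33), which codes for a membrane protein with leucine-rich repeats, Ggt7 (log2 2.44 ± 0.26), of the gamma-glutamyltransferase family, and Gfod1 (log2 2.30 ± 0.26). The 2 genes known only by clone names were 1700016D06Rik (log2 3.36 ± 0.36) and 1810010H24Rik (log2 2.81 ± 0.17).

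By the smallest p, the leading rises were Atp1b2, Coro2b, Cited4 and Hhip, with Gm14300, a processed pseudogene. Atp1b2, a beta subunit of the sodium and potassium pump, stood out by its level, at 37.6, 41.6, 33.8 and 41.3 CPM at 0 h and 142, 144, 152 and 172 CPM at 12 h (log2 fold change 1.98, standard error 0.076, adjusted p = 3.1e-11). Cited4, a partner of the coactivators CBP and p300, went from 11.0 ± 0.691 to 35.9 ± 1.43 CPM, and Coro2b, which binds actin, from 16.7 ± 1.82 to 50.1 ± 2.91 CPM. Gm14300 went from 52.2 ± 1.99 to 114 ± 2.21 CPM (log2 fold change 1.13, standard error 0.052, adjusted p = 2.4e-10), and as a pseudogene it may share reads with the gene it was copied from.

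The next sequences are the 250 bases before the starts of Slc16a3 (chr11:120948817-120949066 of GRCm38.p6, plus strand) and Bnip3 (chr7:138909507-138909756 of GRCm38.p6, minus strand), shown because these genes led the rises of the glycolysis and hypoxia lists. Capitals mark ACGTG on either strand, the core letters of the hypoxia response element, and CACGTG holds it on both strands at once.
Slc16a3: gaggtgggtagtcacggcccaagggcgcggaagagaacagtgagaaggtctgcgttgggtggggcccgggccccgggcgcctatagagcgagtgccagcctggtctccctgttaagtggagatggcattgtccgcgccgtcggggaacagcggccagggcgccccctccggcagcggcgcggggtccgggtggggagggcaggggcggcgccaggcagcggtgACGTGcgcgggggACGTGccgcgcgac
Bnip3: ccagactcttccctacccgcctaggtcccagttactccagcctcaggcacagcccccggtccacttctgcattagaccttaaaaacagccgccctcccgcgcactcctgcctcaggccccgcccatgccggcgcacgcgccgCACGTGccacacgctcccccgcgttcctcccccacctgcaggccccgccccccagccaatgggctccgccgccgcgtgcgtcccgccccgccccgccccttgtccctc
These letters stood in the windows of 18.5% of the 27025 genes. They stood in those of 15 of the 20 hypoxia response genes with a window (75.0%) and of 14 of the 31 glycolysis and pyruvate genes (45.2%). Of the 15 largest rises, 9 had a window and 2 of these held the letters (22.2%). Of the 15 largest falls, 11 had a window and 3 of these held them (27.3%). The hypoxia list was drawn from known targets of this pathway, and the glycolysis list shares genes with it. Nothing is read from these shares.

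**Figure D2:**
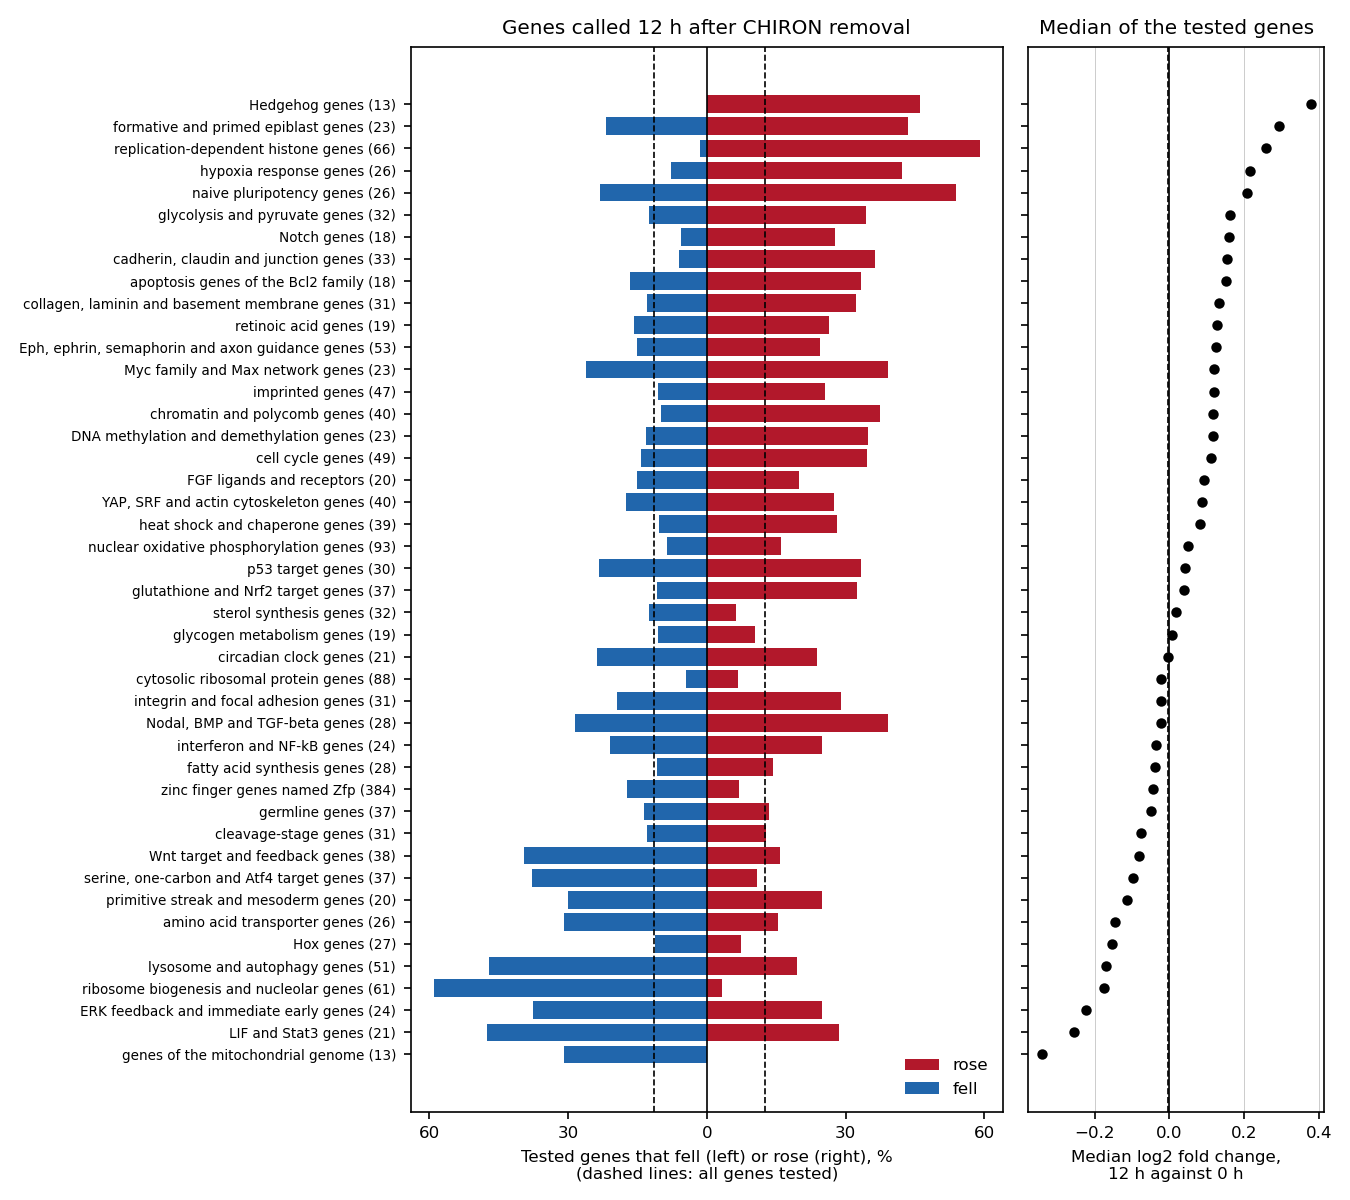
Share of the tested genes of each list that fell (blue, left) or rose (red, right) 12 h after CHIRON removal, in percent, and the median log2 fold change of the tested genes (right panel), for the 44 lists with at least 13 tested genes (number in brackets). Dashed lines mark all 19456 genes, of which 11.5% fell and 12.6% rose. Ribosome biogenesis and lysosome genes lean to the left, and histone, Hedgehog and hypoxia genes to the right.

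Signalling genes moved in different directions by pathway. In the Nodal, BMP and TGF-beta list 11 genes rose and 8 fell of 28 tested, led by the Lefty genes upward and by Id3 (log2 −2.76 ± 0.12), an inhibitor of helix-loop-helix factors induced by BMP, and Bmp2 (log2 −1.94 ± 0.53), a BMP ligand, downward. Bmp2 had at most 17 counts in any library, so its fitted fold rests on few counts. Id3 was at 22.8, 23.7, 24.7 and 21.6 CPM at 0 h and 2.64, 3.17, 4.27 and 3.79 CPM at 12 h. The number that fell was 5 without replicate 1 of soft at 0 h or without replicate 1 of stiff at 12 h. In the Hedgehog list 6 of 13 tested genes rose and 0 fell, with a median of 0.38. Besides Hhip these included the receptor Ptch1 (log2 0.76 ± 0.054), the co-receptor Boc (log2 1.05 ± 0.14), the signal transducer Smo and the transcription factor Gli1, the last with overlapping groups. Ptch1 was at 49.9, 51.1, 48.6 and 45.7 CPM at 0 h and 87.0, 80.7, 80.8 and 82.2 CPM at 12 h. Hhip, Ptch1 and Gli1 are themselves known targets of the Hedgehog pathway.

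Of the 24 tested genes of ERK feedback and immediate early response, 9 fell and 6 rose, although PD03 was present in both groups. Spry4, a Sprouty inhibitor of receptor tyrosine kinase signalling, was at 36.0, 31.3, 38.0 and 40.7 CPM at 0 h and 5.01, 8.71, 8.79 and 5.97 CPM at 12 h (log2 fold change −2.38, standard error 0.14, adjusted p = 2.8e-09). Myc, the growth-promoting transcription factor, was at 37.1, 33.4, 31.3 and 37.1 CPM at 0 h and 7.16, 7.29, 11.3 and 12.6 CPM at 12 h (log2 fold change −1.89, standard error 0.13, adjusted p = 1.8e-08). Both had groups that did not overlap. The leading rises of the list were Ier3 (log2 1.59 ± 0.23), an immediate early gene, and Dusp8 (log2 1.43 ± 0.31), a phosphatase of MAP kinases. Among FGF ligands and receptors 4 rose and 3 fell of 20. Fgf4, the main FGF of mESCs, went from 118, 112, 128 and 116 CPM to 272, 292, 267 and 278 CPM (log2 fold change 1.23, standard error 0.057, adjusted p = 2.5e-10), and Fgfr2 (log2 1.55 ± 0.23), a receptor, rose while Fgf10 (log2 −1.36 ± 0.24) fell. Fgf2 was called with at most 23 counts in any library and with groups that overlapped.

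Of the 21 tested genes of the LIF and Stat3 list, 10 fell and 6 rose. Sp5 and Gbx2 led the falls, followed by Spry2 (log2 −1.28 ± 0.061). Cish, a feedback inhibitor induced by Stat5 and other Stats, rose from 1.84 ± 0.379 to 5.33 ± 0.579 CPM (SD, n = 4). In the Notch list 5 of 18 tested genes rose, among them the receptors Notch1 (log2 0.79 ± 0.081) and Notch4 (log2 0.87 ± 0.089) and the feedback gene Nrarp (log2 0.78 ± 0.18). The falling gene was Maml2 (log2 −1.59 ± 0.12), a coactivator of Notch targets. In the retinoic acid list 5 rose and 3 fell of 19, with Dhrs3 (log2 1.42 ± 0.092), which turns retinal back to retinol, and Stra8 (log2 1.40 ± 0.1), a gene induced by retinoic acid, upward and the receptor Rarb (log2 −1.39 ± 0.22) and Cyp1b1 (log2 −2.34 ± 0.58), a cytochrome P450 present at few counts, downward.

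Genes of naïve pluripotency rose more often than they fell. Of 26 tested genes 14 rose and 6 fell, against 12.6% and 11.5% of all genes, and the median was 0.21. Nanog, a core factor of naïve pluripotency, was at 479, 479.5, 485 and 416 CPM at 0 h and 693, 802, 772 and 764 CPM at 12 h (log2 fold change 0.71, standard error 0.065, adjusted p = 6.4e-07). Every library at 12 h exceeded every library at 0 h. In contrast, Tfcp2l1, a factor of the same network linked to both LIF and CHIRON, was at 1014, 1097, 1015 and 1029 CPM at 0 h and 666, 683, 687 and 628 CPM at 12 h (log2 fold change −0.64, standard error 0.055, adjusted p = 2.8e-07). Gbx2 was the largest fall and Fgf4 the largest rise of the list. Esrrb, another naïve factor of the list, had 21529, 25220, 19409 and 19850 counts at 0 h. At 12 h it had 22540, 14171, 17930 and 16406 counts. The soft libraries differed in depth. The stiff libraries had close totals, and in them each Esrrb count at 12 h was below each at 0 h.

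In the list of formative and primed epiblast genes 10 rose and 5 fell of 23, with a median of 0.29. Otx2, the homeobox factor that accompanies the exit from naïve pluripotency, was at 1.31, 1.07, 1.37 and 1.25 CPM at 0 h and 5.59, 4.96, 6.43 and 6.37 CPM at 12 h (log2 fold change 2.22, standard error 0.16, adjusted p = 3.0e-08). Its level remained low, although the groups did not overlap. Tcf15, a helix-loop-helix factor of primed cells, also rose (log2 fold change 1.43, standard error 0.12, adjusted p = 1.8e-07). Lin28a, an RNA-binding protein that blocks let-7 maturation, was at 34.6, 36.2, 35.5 and 37.0 CPM at 0 h and 8.88, 7.34, 11.7 and 8.76 CPM at 12 h (log2 fold change −1.96, standard error 0.099, adjusted p = 6.1e-10), and Lef1 (log2 −1.82 ± 0.21), itself a Wnt target, fell too. Fgf5, a marker of the primed epiblast, had at most 8 counts in any library.

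Genes were also grouped by the letters that open their symbols. Of 174 families with at least 10 tested protein-coding genes, 8 had at least 40% of their genes rise and 3 had at least 40% fall. These families were chosen by that share, so their counts are a description. Among Sox factors, 8 rose and 0 fell of 14 tested, with a median of 0.55. The largest changes were in Sox18 (log2 1.59 ± 0.54), with overlapping groups, and Sox9 (log2 1.47 ± 0.41), both with at most 44 counts in any library, and in Sox21, a SoxB factor, which went from 8.26 ± 0.900 to 24.6 ± 3.97 CPM (log2 fold change 1.57, standard error 0.1, adjusted p = 1.6e-08). Among POU factors, 5 rose and 1 fell of 12 tested, with Pou3f2 (log2 1.09 ± 0.18), Pou4f2 (log2 0.90 ± 0.2) and Pou6f1 (log2 0.47 ± 0.12) in front. Among histone lysine demethylases, 10 rose and 1 fell of 17 tested, led by Kdm4b (log2 0.62 ± 0.055), Kdm6b (log2 0.57 ± 0.078) and Kdm2a (log2 0.57 ± 0.053). Among histone deacetylases, 4 rose and 1 fell of 10 tested, led by Hdac6 (log2 0.50 ± 0.058), Hdac5 (log2 0.29 ± 0.077) and Hdac7 (log2 0.27 ± 0.069).

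The chromatin and polycomb list leaned the same way, with 15 rises and 4 falls of 40 tested genes. Its leading members were Phf19 (log2 1.65 ± 0.29) and Cbx8 (log2 1.03 ± 0.15), both polycomb proteins, and the demethylase Kdm5b (log2 0.52 ± 0.063). The number that rose was 9 without replicate 1 of soft at 0 h or without replicate 1 of stiff at 12 h. Of 23 genes of DNA methylation and demethylation, 8 rose and 3 fell, or 1 fell without replicate 2 of soft at 0 h. Tet3 (log2 0.60 ± 0.083), which oxidises methylcytosine, and Dnmt3a (log2 0.58 ± 0.077), a de novo methyltransferase, rose, as did Gadd45b (log2 0.39 ± 0.085) and Tet1 (log2 0.39 ± 0.11), the last with overlapping groups.

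Genes of glycolysis and pyruvate use rose in 11 and fell in 4 of 32 cases, with a median of 0.16. Ldha, which makes lactate from pyruvate, was at 178, 167, 175 and 188 CPM at 0 h and 346, 326, 295 and 356 CPM at 12 h (log2 fold change 0.90, standard error 0.065, adjusted p = 3.6e-08). Tpi1, a glycolytic isomerase, went from 67.7, 65.0, 69.4 and 70.0 CPM to 149.7, 137, 115 and 156 CPM (log2 fold change 1.03, standard error 0.079, adjusted p = 7.2e-08). In both genes the groups did not overlap, as for the lactate exporter Slc16a3. Pdk1, a pyruvate dehydrogenase kinase, went the other way, from 29.8 ± 2.16 to 16.1 ± 2.22 CPM (log2 fold change −0.89, standard error 0.095, adjusted p = 3.2e-06). The hypoxia response list, which shares 6 genes with it, Ldha and Pdk1 among them, had 11 rises and 2 falls of 26 tested genes, with Ankrd37 (log2 1.39 ± 0.24), Ndrg1 (log2 1.27 ± 0.084) and Bnip3 upward. Egln3, an oxygen-sensing hydroxylase that is usually induced by hypoxia, fell (log2 fold change −1.27, standard error 0.18, adjusted p = 5.2e-05).

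Lysosome and autophagy genes fell in 24 and rose in 10 of 51 cases, with a median of −0.17. Ctsc, the protease cathepsin C, was at 90.1, 96.6, 89.7 and 88.3 CPM at 0 h and 33.7, 38.1, 31.7 and 28.4 CPM at 12 h (log2 fold change −1.47, standard error 0.065, adjusted p = 1.4e-10). Gpnmb (log2 −1.03 ± 0.14), a glycoprotein of lysosomes and melanosomes, and Rragd (log2 −0.88 ± 0.073), a GTPase that brings mTORC1 to the lysosome, fell as well, while Bnip3 was the largest rise. Genes of serine and one-carbon metabolism and of the Atf4 response fell in 14 and rose in 4 of 37 cases. Asns, asparagine synthetase, was at 651, 686, 661 and 687 CPM at 0 h and 380.4, 379, 386 and 347 CPM at 12 h (log2 fold change −0.85, standard error 0.055, adjusted p = 1.3e-08), and Aldh1l2 (log2 −0.86 ± 0.24) and Cbs (log2 −0.65 ± 0.077) followed, while Cth (log2 0.68 ± 0.059), which makes cysteine, rose. Among amino acid transporters 8 fell and 4 rose of 26, with Slc7a8 (log2 −0.78 ± 0.22) and Slc38a7 (log2 −0.53 ± 0.058) downward and Slc38a2 (log2 0.58 ± 0.05) and the taurine transporter Slc6a6 (log2 0.53 ± 0.054) upward.

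Lipid and glycogen lists are set beside the 12.6% and 11.5% of all genes that rose and fell. Of 32 genes on the sterol synthesis list 2 rose and 4 fell. The leading rise was Abca1 (log2 0.71 ± 0.091), a cholesterol exporter that the list holds beside synthesis genes. Sc5d (log2 −0.30 ± 0.064), Lss (log2 −0.23 ± 0.067) and Insig1 (log2 −0.22 ± 0.066) led the falls. There were 2 falls without replicate 1 of stiff at 12 h and 1 without replicate 2 of that group. The rises were 4 without replicate 2 of stiff at 0 h, and 1 without replicate 1 of stiff at 0 h or at 12 h, either soft 0 h library or replicate 2 of soft at 12 h. Of 28 fatty acid genes 4 rose and 3 fell, with Mlxipl (log2 1.17 ± 0.1), the carbohydrate-sensing factor ChREBP, Thrsp (log2 0.96 ± 0.31) and Acss2 (log2 0.68 ± 0.08) upward and Fasn (log2 −0.27 ± 0.079) downward, the last with overlapping groups. Glycogen metabolism had 2 rises and 2 falls of 19. Without replicate 2 of soft at 0 h, stiff at 0 h or stiff at 12 h there was 1 of each, without replicate 1 of stiff at 12 h 1 rise, and without replicate 1 of soft at 12 h 1 fall. Gys1, which codes for glycogen synthase, a classical substrate of GSK3, was at 77.6, 81.6, 74.0 and 77.1 CPM at 0 h and 147, 154, 151 and 150.2 CPM at 12 h (log2 fold change 0.96, standard error 0.051, adjusted p = 1.3e-09). The other called genes were Pgm2 (log2 0.59 ± 0.18), with overlapping groups, Gaa (log2 −0.42 ± 0.051) and Phka2 (log2 −0.22 ± 0.068). Glutathione and Nrf2 target genes rose in 12 and fell in 4 of 37 cases, with Nqo1 (log2 0.57 ± 0.055) and Srxn1 (log2 0.51 ± 0.08) upward and Osgin1 (log2 −0.70 ± 0.22) and Gss (log2 −0.65 ± 0.053) downward. Without replicate 2 of soft at 0 h or at 12 h 2 of these fell, and without replicate 2 of stiff at 12 h 1 did.

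The counts of mitochondrial genes depended on the libraries used. Of 13 genes of the mitochondrial genome, 4 fell and none rose, with a median of −0.34, and each of the 4, mt-Co1 (log2 fold change −0.45, standard error 0.14, adjusted p = 0.031), mt-Atp8, mt-Cytb and mt-Nd4, had overlapping groups. The summed level of the 13 genes ran from 22040 to 39440 CPM at 0 h and from 20730 to 29270 CPM at 12 h. The number that fell was 12 without replicate 2 of stiff at 0 h, 5 without replicate 2 of stiff at 12 h, 2 without replicate 2 of soft at 0 h, 0 without any of the other 5 libraries, and 0 with DESeq2. Of 93 nuclear genes of oxidative phosphorylation 15 rose and 8 fell, but between 4 and 17 rose and between 2 and 7 fell when 1 library was left out. It was 4 rises without replicate 2 of soft at 0 h or of stiff at 12 h, 7 without replicate 1 of soft at 12 h, 8 without replicate 1 of stiff at 0 h, and 10 without replicate 1 of soft at 0 h. Falls were 2 without replicate 2 of stiff at 12 h, 3 without replicate 1 of soft at 0 h, 4 without replicate 2 of soft at 12 h, and 5 without replicate 2 of soft or replicate 1 of stiff at 0 h. Ndufa4l2 (log2 1.01 ± 0.34), a hypoxia-inducible subunit-like gene, had the largest change, with Ndufaf3 (log2 0.38 ± 0.094), Cox7a1 (log2 0.32 ± 0.084), the last with overlapping groups, and Ndufaf4 (log2 −0.34 ± 0.083) behind it. In the Ndufa family, 6 rose and 1 fell of 14 tested, with Ndufa3 (log2 0.30 ± 0.06) and Ndufa11 (log2 0.26 ± 0.078), the last with overlapping groups, after Ndufa4l2.

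Many genes of ribosome production fell, while few ribosomal protein genes were called. Of 61 genes of ribosome biogenesis and the nucleolus 36 fell (59.0%) and 2 rose, with a median of −0.17. Rrn3, which brings RNA polymerase I to ribosomal DNA, was at 229.5, 231, 249 and 244 CPM at 0 h and 157, 159.6, 175 and 158 CPM at 12 h (log2 fold change −0.56, standard error 0.052, adjusted p = 7.0e-07). Then came Tsr1 (log2 −0.48 ± 0.058), Ddx51 (log2 −0.41 ± 0.065) and Gnl3 (log2 −0.37 ± 0.051), all factors of ribosome assembly. The number that fell was between 27 and 37 when 1 library was left out, and 25 when libraries were scaled by their totals alone. At most 1 rose without any 1 of the 8 libraries. Of 88 cytosolic ribosomal protein genes 6 rose and 4 fell, with Rps27a (log2 0.27 ± 0.078), Rpl10l (log2 0.22 ± 0.056), Rpl29 (log2 −0.41 ± 0.11) and Rps6 (log2 −0.23 ± 0.078) at the ends, of which only Rpl10l had groups that did not overlap. These genes have many processed copies, and between 1 and 6 rose and between 0 and 9 fell when 1 library was left out. The rises were 3 or fewer without either soft 0 h library, without replicate 2 of soft at 12 h or without either stiff 12 h library, and the falls were 2 or fewer without either soft 0 h library or without replicate 2 of any of the other 3 groups, and 9 without replicate 1 of soft at 12 h.

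In the Myc family and Max network, 9 rose and 6 fell of 23. Myc itself fell, and the Max partners that repress transcription, Mxd3 (log2 1.08 ± 0.17) and Mxd4 (log2 0.82 ± 0.16), rose. Mxd3 was at 3.34, 4.05, 3.04 and 2.00 CPM at 0 h and 5.84, 6.81, 7.53 and 6.15 CPM at 12 h. Among the Srsf splicing factors, 0 rose and 5 fell of 11 tested, led by Srsf5 (log2 −0.30 ± 0.051), Srsf2 (log2 −0.27 ± 0.061) and Srsf7 (log2 −0.22 ± 0.058). Among the genes named Sf, mostly of splicing, 0 rose and 4 fell of 10 tested, led by Sf3a2 (log2 −0.34 ± 0.055), Sf3b3 (log2 −0.24 ± 0.057) and Sf1 (log2 −0.22 ± 0.059). Among Alg enzymes, which build the sugar chain of glycoproteins, 0 rose and 5 fell of 12 tested, led by Alg13 (log2 −0.40 ± 0.072), Alg5 (log2 −0.35 ± 0.096) and Alg1 (log2 −0.30 ± 0.077). Chaperones rose more often than they fell, with 11 rises and 4 falls of 39, and with between 1 and 3 falls without any 1 of the 8 libraries. Xbp1 (log2 0.59 ± 0.069), the factor of the unfolded protein response, Manf (log2 0.47 ± 0.056) and Hspb1 (log2 0.43 ± 0.051) rose, as did Hspa1b (log2 0.61 ± 0.18), whose near copy Hspa1a may share its reads. Among Dnajb genes, 4 rose and 0 fell of 10 tested, led by Dnajb2 (log2 0.55 ± 0.12), Dnajb5 (log2 0.33 ± 0.076) and Dnajb1 (log2 0.32 ± 0.052).

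Replication-dependent histone genes formed the list with the highest share of rises of the 51 lists. Of 66 tested genes 39 rose (59.1%) and 1 fell, with a median of 0.26. Hist1h2bl was at 59.0, 55.6, 50.7 and 65.5 CPM at 0 h and 82.3, 104, 76.6 and 92.8 CPM at 12 h (log2 fold change 0.62, standard error 0.091, adjusted p = 8.7e-05), and Hist1h2bj (log2 0.61 ± 0.058) and Hist1h2bf (log2 0.58 ± 0.081) were close to it. The split by class was made after the values were seen. Among H2B genes 15 of 18 rose, with a median of 0.49, and among H2A genes 13 of 18 rose and 1 fell, with a median of 0.26. Among the other classes 3 of 6 H1, 3 of 11 H3 and 5 of 13 H4 genes rose. Most of these RNAs lack a poly(A) tail, and the libraries were made from total RNA depleted of ribosomal RNA. The genes are near copies of each other, so their counts are not independent, and the number that rose was between 30 and 46 when 1 library was left out. The falling gene, Hist1h2aa (log2 −0.62 ± 0.21), is a testis variant and had overlapping groups, and the number that fell was between 0 and 2 when 1 library was left out, 2 without replicate 1 of stiff at 0 h, 1 without replicate 2 of soft at 0 h or of stiff at 12 h, and 0 without any other.

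**Figure D3:**
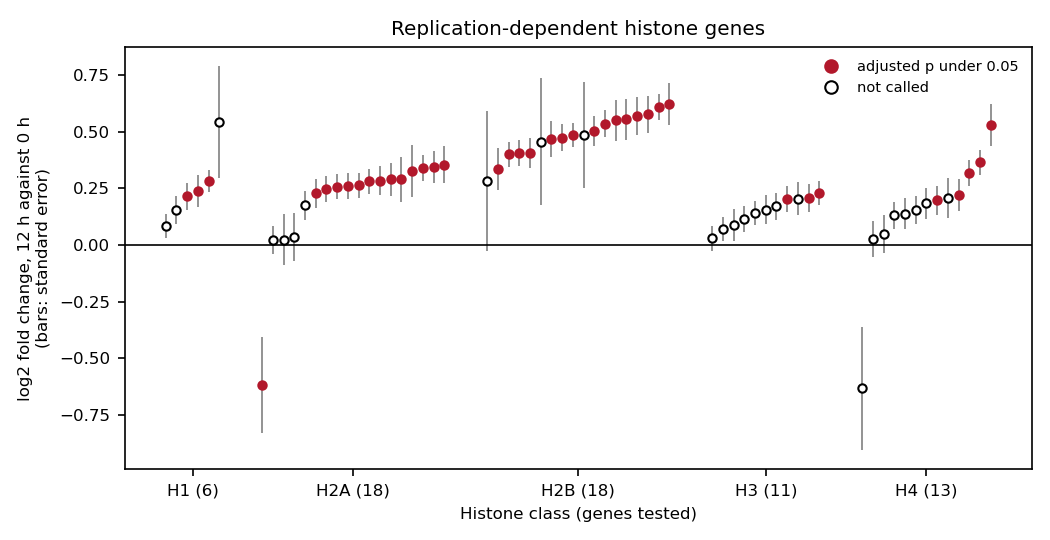
Log2 fold change (12 h against 0 h) with its standard error for the 66 tested replication-dependent histone genes, by class and sorted by size. Filled points passed the adjusted p threshold of 0.05 and open points did not. H2B genes reach higher, up to 0.62, than H3 genes, which reach 0.23.

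Cell cycle genes rose in 17 and fell in 7 of 49 cases. Cdk6, a kinase of G1, was at 87.5, 104, 93.3 and 110.5 CPM at 0 h and 41.5, 37.9, 44.2 and 41.5 CPM at 12 h (log2 fold change −1.26, standard error 0.071, adjusted p = 2.4e-09). Cdkn1c (log2 0.98 ± 0.24), an inhibitor of cyclin-dependent kinases, and Cdc25b (log2 0.68 ± 0.086), a phosphatase of mitotic entry, rose, while Cdkn1a (log2 −0.67 ± 0.058), the inhibitor p21, fell. The p53 target list had 10 rises and 7 falls of 30, with Plk3 (log2 0.73 ± 0.067) upward and Plk2 (log2 −0.64 ± 0.064), Pvt1 (log2 −0.62 ± 0.2), with overlapping groups, and Cdkn1a downward. In the Bcl2 family 6 rose and 3 fell of 18. Besides Bnip3, Bcl2l14 (log2 0.69 ± 0.1) rose, and the proapoptotic Bok (log2 −1.33 ± 0.26) and Bid (log2 −0.80 ± 0.064) fell.

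Junction and basement membrane genes rose more often than they fell. Of 33 cadherin, claudin and junction genes 12 rose and 2 fell. Cldn9, a claudin of tight junctions, had 0, 0, 1 and 1 counts at 0 h and 19, 10, 14 and 14 counts at 12 h (adjusted p = 9.5e-05), the largest change of the list but at few counts. Cldn6 (log2 1.00 ± 0.18) and Cdh3 (log2 1.00 ± 0.14), the P-cadherin gene, rose, and Gja1 (log2 −1.15 ± 0.079), the gap junction protein connexin 43, fell. Gja1 was at 41.5, 45.4, 42.8 and 43.1 CPM at 0 h and 18.9, 20.0, 22.0 and 16.8 CPM at 12 h. Of 31 collagen, laminin and basement membrane genes 10 rose and 4 fell, with Col4a1 (log2 0.96 ± 0.099), P4ha1 (log2 0.93 ± 0.093), which hydroxylates collagen, and Lama4 (log2 0.73 ± 0.19) upward and Frem2 (log2 −1.15 ± 0.24) downward.

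Among 31 integrin and focal adhesion genes 9 rose and 6 fell, with a median of −0.02. Itgb3, the β3 subunit, was at 4.54, 4.37, 4.10 and 3.42 CPM at 0 h and 10.1, 13.1, 10.6 and 10.6 CPM at 12 h (log2 fold change 1.43, standard error 0.12, adjusted p = 1.8e-07). Among α subunits, 4 rose and 1 fell of 10 tested, with Itga3 (log2 0.95 ± 0.056), Itga9 (log2 0.80 ± 0.12) and Itga5 (log2 0.59 ± 0.053), the last of which pairs with β1 as a fibronectin receptor. Fermt1 (log2 −1.49 ± 0.47), the integrin activator kindlin 1, was called at under 1 CPM and had an adjusted p of 0.053 with DESeq2. In the YAP, SRF and actin list 11 rose and 7 fell of 40, with Ajuba (log2 0.74 ± 0.057) and Krt8 (log2 0.65 ± 0.1) upward, Thbs1 (log2 1.32 ± 0.33) upward with overlapping groups, and Zyx (log2 −0.52 ± 0.098) downward. The number that rose was 7 without replicate 2 of soft at 0 h, of soft at 12 h or of stiff at 12 h. Guidance genes had 13 rises and 8 falls of 53. Netrin was joined by the receptors Ephb1 (log2 −2.21 ± 0.34) and Epha7 (log2 −1.65 ± 0.14), and Plxna4 (log2 1.80 ± 0.24), a semaphorin receptor, rose.

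Several other lists held single genes with clear changes. In the cleavage-stage list 4 rose (2 without replicate 1 of stiff at 0 h) and 4 fell of 31, or 12.9% each. These shares were near the 12.6% and 11.5% of all genes that rose and fell. Calcoco2, an autophagy receptor also raised in early-embryo-like cells, was at 121, 132, 126 and 132 CPM at 0 h and 295, 342, 301 and 320.3 CPM at 12 h (log2 fold change 1.30, standard error 0.061, adjusted p = 2.5e-10). Pramel6 (log2 0.79 ± 0.082) rose, and the multicopy genes Usp17le (log2 −0.48 ± 0.1) and Usp17la (log2 −0.47 ± 0.089) fell. Germline genes had 5 rises and 5 falls of 37 (13.5% each), also near the shares of all genes. Among them Stra8 and Tuba3b (log2 0.61 ± 0.091) rose, and the meiotic bromodomain gene Brdt (log2 −1.51 ± 0.13) and Nanos3 (log2 −1.09 ± 0.26) fell. Imprinted genes had 12 rises and 5 falls of 47, among them Peg12 (log2 1.08 ± 0.24), Ascl2 (log2 0.87 ± 0.23), Cdkn1c and Dlk1, the last at no more than 31 counts in any library. The falls were 3 without either stiff 0 h library and 2 without replicate 2 of soft at 0 h, of soft at 12 h or of stiff at 12 h.

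Among 27 tested Hox genes 2 rose (7.41%) and 3 fell (11.1%). Those described here were scarce, namely Hoxc8 (log2 −1.41 ± 0.4), Hoxb13 (log2 0.94 ± 0.22) and Hoxa13 (log2 1.81 ± 0.43), each with at most 70 counts in any library. Of 8 keratin genes 3 rose, Krt8, Krt42 (log2 1.58 ± 0.13) and Krt222 (log2 1.76 ± 0.52), and 0 fell. Krt222 was scarce, at no more than 0.9 CPM in any library. Genes named Zfp fell more often than they rose, with 66 falls (17.2%) and 27 rises (7.03%) of 384 tested. Of all genes 11.5% fell and 12.6% rose, and of protein-coding genes 14.4% fell and 16.2% rose. The largest Zfp falls were Zfp36l3 (log2 −2.62 ± 0.27), Zfp677 (log2 −2.26 ± 0.58), Zfp503 (log2 −2.02 ± 0.27) and Zfp703 (log2 −1.72 ± 0.11). Zfp677 was scarce, with at most 19 counts in any library. In the aryl hydrocarbon receptor list 3 fell and 1 rose of 9. Tiparp, a target of this receptor, went from 30.3 ± 1.38 to 14.9 ± 1.55 CPM (log2 fold change −1.02, standard error 0.083, adjusted p = 1.4e-07), and Ahrr (log2 −1.23 ± 0.4), its repressor, and Cyp1b1 fell, both with at most 27 counts in any library.

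Metallothionein and zinc genes had 1 rise and 3 falls of 8, namely Mt3 (log2 1.72 ± 0.24), Slc30a2 (log2 −1.16 ± 0.058), Mt1 (log2 −0.27 ± 0.057), with overlapping groups, and Slc39a10 (log2 −0.22 ± 0.057). Circadian genes had 5 rises and 5 falls of 21, with Bhlhe40 (log2 −0.98 ± 0.13), Tef (log2 −0.60 ± 0.096), Nr1d1 (log2 −0.58 ± 0.077) and Npas2 (log2 0.61 ± 0.19), the last with overlapping groups, in front. The rises were 2 without replicate 1 of soft at 0 h and 3 without replicate 1 of stiff at 0 h. Interferon and NF-kB genes had 6 rises and 5 falls of 24. Ifitm3, an antiviral membrane protein, went from 132 ± 14.4 to 235 ± 14.7 CPM (log2 fold change 0.83, standard error 0.074, adjusted p = 4.3e-07), with Ifitm1 (log2 0.78 ± 0.074), H2-K1 (log2 0.78 ± 0.21) and Tnfaip3 (log2 −0.72 ± 0.24) behind it. The falls were 3 without replicate 2 of soft at 0 h or replicate 1 of stiff at 0 h, of soft at 12 h or of stiff at 12 h.

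Markers of other cell types were low beside those of mESCs, and some rose. The 12 neural markers summed from 59.2 to 68.8 CPM at 0 h and from 104 to 113 CPM at 12 h, and 3 of 6 tested rose, Nes (log2 1.16 ± 0.065), Sox1 (log2 1.01 ± 0.1) and Tubb3 (log2 0.50 ± 0.064), while Pax6 had between 33 and 67 counts and Neurod1 between 10 and 27. The 17 primitive endoderm markers summed from 274 to 303 CPM at 0 h and from 363 to 384 CPM at 12 h, with 4 rises of 11 tested, Col4a1, Lrp2 (log2 0.88 ± 0.16), whose groups overlapped, Lamb1 (log2 0.53 ± 0.1) and Sparc, and Hnf4a (log2 −1.82 ± 0.33) downward. Their defining genes stayed low in every library, with between 13 and 67 counts of Gata6, between 17 and 45 of Gata4 and between 5 and 16 of Sox17. The 15 trophectoderm markers summed from 122 to 130.1 CPM at 0 h and from 136 to 148 CPM at 12 h, with 3 rises and 2 falls of 11, in Gata3, Ascl2 and Krt8 and in Cdx2 and Eomes. Only 1 of them fell without replicate 2 of soft at 0 h, replicate 1 of soft at 12 h or any stiff library. Gata3 was at 6.21, 4.97, 5.56 and 6.36 CPM at 0 h and 15.4, 15.5, 13.8 and 19.9 CPM at 12 h (log2 fold change 1.49, standard error 0.12, adjusted p = 1.7e-07), while Elf5, which defines the lineage, had between 3 and 20 counts. The 12 fibroblast markers summed from 5.78 to 7.28 CPM at 0 h and from 6.81 to 8.91 CPM at 12 h, and 1 of 4 tested rose, Twist1 (log2 0.65 ± 0.18), or none without replicate 1 of stiff at 0 h or replicate 2 of stiff at 12 h, while Col1a1 had between 35 and 104 counts. These genes include matrix and epiblast genes that mESCs also express, and the part of other cells in the rises described above was not tested.

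Among genes that do not code for protein, the larger classes had lower shares of calls. Of 621 lincRNA genes 22 rose (3.54%) and 59 fell (9.50%), and of 2522 processed pseudogenes 102 rose and 60 fell. The largest falls were Gm15743 (log2 −3.22 ± 0.38), an antisense gene, Gm7932 (log2 −2.96 ± 0.51), a lincRNA, and Gm7765 (log2 −2.35 ± 0.17), a processed pseudogene. The largest rises were A730036I17Rik (log2 2.44 ± 0.39), a lincRNA, Gm11701 (log2 1.65 ± 0.21), a processed pseudogene, and Gm42870 (log2 1.65 ± 0.25), a gene model of the class TEC, not yet checked by experiment. Whether counting used strand is not given in the sources used here, so an antisense gene cannot be told apart from its partner.

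The response was compared between soft and stiff gels. All 4697 called genes had the same sign on both substrates, which calling them over all 8 libraries together makes likely. No gene passed the threshold for a difference in response between the substrates (edgeR, 0.00% of 19456), 509 had an unadjusted p under 0.05, and with DESeq2 the numbers were 0 and 209. The smallest p was that of Myc. Its log2 fold change was −2.29 on soft and −1.52 on stiff gels, a difference of 0.77 (standard error 0.17, adjusted p = 1.00), and its 2 soft libraries at 12 h were both below its 2 stiff libraries. The next by p were Gm44983, Calca, P2ry2 and Gm43328, all under 5 CPM, with differences of 1.20, −3.11, −3.29 and −2.13. Without replicate 1 of stiff at 0 h, 13 genes passed.

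**Figure D4:**
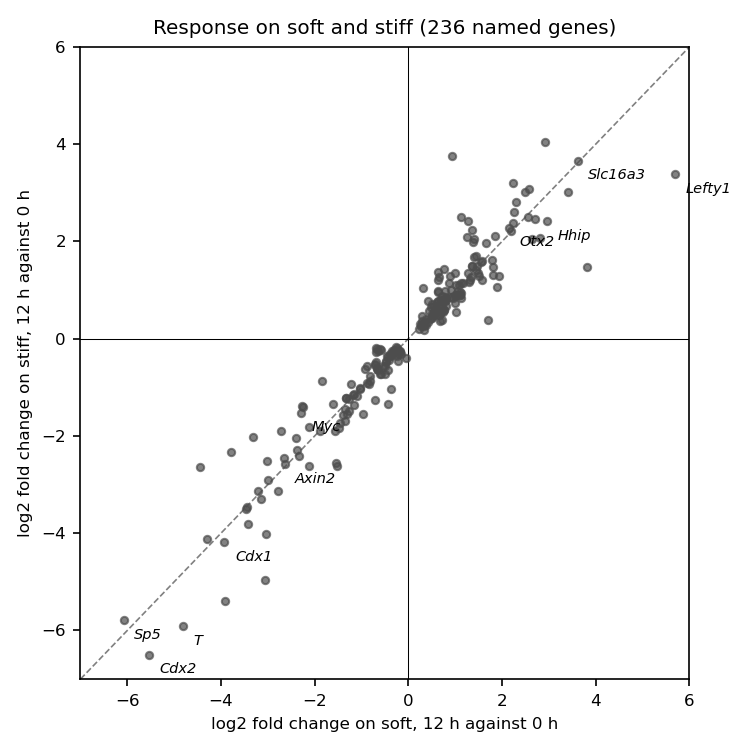
Log2 fold change (12 h against 0 h) on stiff against that on soft gels for the 236 genes named by the rule for the main comparison, 1 point each, with the line of equal response dashed. Each point has the same sign on both gels. Named points include Sp5 and Cdx2 at one end and Slc16a3 and Lefty1 at the other.

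The levels at 2 h, in the 3 libraries of that time with enough counts, give some of these genes between the endpoints. They are reported without a test, on a scale set over 11 libraries. Sp5 was at 119.9 CPM on average at 0 h, at 69.7, 57.5 and 58.2 CPM at 2 h (soft replicate 1, soft replicate 2 and stiff replicate 2) and at 1.96 CPM on average at 12 h. Axin2 was at 151 CPM, 109, 101 and 98.3 CPM and 24.8 CPM in the same order. For both, every library at 2 h was below every library at 0 h. T was still at 7.02, 7.36 and 5.28 CPM at 2 h, against a mean of 6.70 CPM at 0 h. Of the 104 genes named above or by the same rule that fell by 12 h, 28 had all 3 libraries at 2 h below all 4 at 0 h, and 5 had them above. Of the 132 named genes that rose by 12 h, 18 had all 3 libraries at 2 h above all 4 at 0 h, and 3 had them below. How many of all genes tested showed these patterns was not counted, and the named genes were chosen using the same 0 h libraries. Nothing is therefore read from these counts. Fgf4 was among the 18, at 175, 175 and 173 CPM at 2 h against a mean of 119 CPM at 0 h and 278 CPM at 12 h, and so was Cish, at 3.85, 3.09 and 3.44 CPM against 1.84 and 5.35 CPM. Among the rising genes plotted by time, the levels at 2 h were closer to those at 0 h than to those at 12 h. Slc16a3 was at 2.08, 0.740 and 1.08 CPM at 2 h, Lefty2 at 0.840, 0.871 and 0.898 CPM and Otx2 at 1.73, 0.914 and 1.05 CPM, against means at 0 h of 1.33, 1.02 and 1.25 CPM. Hhip was at 3.46, 3.61 and 4.68 CPM against 3.51 CPM at 0 h, and Atp1b2 at 45.2, 40.9 and 47.8 CPM against 38.6 CPM.

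**Figure D5:**
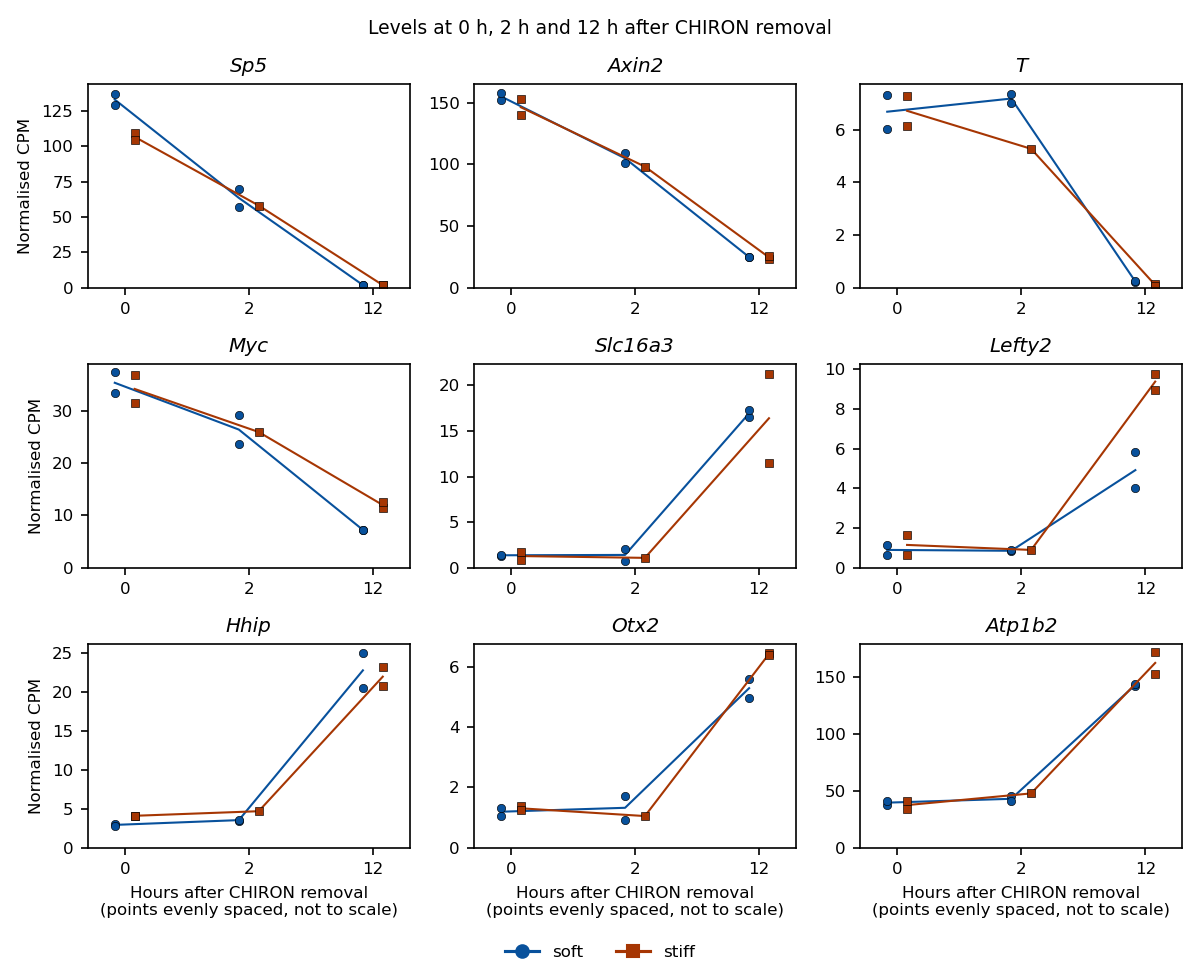
Normalised CPM of 9 genes at 0 h, 2 h and 12 h after CHIRON removal (points evenly spaced, not to scale), for soft (blue circles) and stiff (brown squares) gels. Each point is 1 library and lines join the means, and stiff at 2 h has 1 library. Sp5 and Axin2 are lower at 2 h than at 0 h, and Slc16a3, Lefty2, Hhip, Otx2 and Atp1b2 are highest at 12 h.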

How the data were processed

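Total RNA of mESCs on soft or stiff StemBond hydrogels, depleted of ribosomal RNA, was sequenced. The authors deposited counts per gene. Per the labels, reads were trimmed (Trim Galore), mapped to mm10 with TopHat2 2.1.0 and counted with featureCounts 1.5.0, and DESeq2 is also named. Counts were used as deposited, with nothing pooled. Of 48709 genes, 48349 were matched to GENCODE M21 by identifier.

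The members and gene lists were chosen with earlier results of these data known. The 8 libraries at 0 h and 12 h held 19393787 to 31111260 counts. Genes passing filterByExpr (minimum count 10, minimum total 15) by group, 19456 in all, were tested for 12 h against 0 h with substrate as a block, using TMM factors and the quasi-likelihood test of edgeR 4.0.16 in R 4.3.3 (5 residual degrees of freedom), with Benjamini-Hochberg adjusted p under 0.05. A difference in response between substrates was tested as an interaction. The simulated check on 19015 genes called 72 of 96 genes changed by 1 on the log2 scale, 64 of 98 changed by 0.5 and 7 of 18821 unchanged ones. It changed only a small share of genes and set the spread of each gene by its expression level alone. In the real comparison 24.1% of genes were called, so these rates need not hold for it. Lists were described by counts and medians, with no set test. No pair of libraries of a group agreed within sampling noise, so none was merged.

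Genes were named by rule: the 15 protein-coding genes with the largest change each way (called, groups not overlapping, mean of the higher group at least 1 CPM), the 5 with the smallest p each way, 3 non-coding genes each way, the 3 markers, up to 4 called genes per list with the largest change, up to 3 per symbol family with at least 40% of 10 or more genes called, and the 5 smallest p of the interaction. Some genes that the rule names are not reported here. Other genes of the Wnt, Hedgehog and marker lists were named after their values were seen. Alternatives were DESeq2 1.42.0, other scalings and filters, other sets of libraries, blocks by replicate number or tube digit, and leaving out each library.

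Promoter windows of 250 bases came from RefSeq (GRCm38.p6). Motifs were searched on both strands as exact letters. The 2 h libraries entered only the levels by time, without replicate 1 of stiff at 2 h, which held 171333 counts.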

Additional observations from a re-analysis of the deposited data

How the results depend on the processing

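Between 1959 and 2451 genes rose and between 1713 and 2203 fell when 1 library was left out, with 319 to 384 and 305 to 353 past 1 on the log2 scale. DESeq2 gave 2298 and 2145, DESeq2 size factors 2421 and 2276, no filter on low counts 2664 and 2274, protein-coding genes alone 2431 and 2290, and the 11 libraries the study kept 2303 and 2028. Library totals without a scaling factor gave 2785 and 1710, so that 62.0% of calls were rises against 52.3%, and the median of all genes was 0.032. A fit of all 12 libraries, which includes the one with 171333 counts, gave 270 rises and 241 falls, 154 and 176 past 1. Fits of fewer samples gave 1378 and 1193 for soft libraries only, and 948 and 748 for stiff libraries only, with 223 falls past 1. The number of genes whose response differed between soft and stiff was 16 with no filter on low counts, and between 0 and 13 when 1 library was left out, 13 without replicate 1 of stiff at 0 h. For these counts and those of the fit of all 12 libraries the cause was not tested.

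Replicate numbers were not taken as a pairing, because deviations from the group means of same-numbered libraries correlated between −0.129 and 0.065. With the replicate block 2365 genes rose and 2134 fell, 374 and 335 past 1. With the tube digit as a block 2162 rose and 1987 fell.

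Of 4476 values of named genes under alternatives, 4030 stayed past the threshold with the same sign and 446 lost the call, 145 of them in the fit of all 12 libraries. No value changed sign. Of 236 named genes, 153 were called under every other alternative. DESeq2 ended the calls of Fermt1, Tnfaip3, mt-Co1, mt-Atp8, mt-Cytb, mt-Nd4, Rpl29 and Tet1. Library totals ended those of Tnfaip3, Pvt1, Hist1h2aa, Fasn, Rps6, Lss, Insig1, Phka2, Sf1 and Slc39a10. Of 1938 list counts under alternatives, 335 moved by over 1.5 times. Depth limits genes with few counts, such as Cdx2 and Lefty1. For named genes that do not code for protein, 10 values could not be given in the fit of protein-coding genes alone.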
